A study of Mus musculus with 12 samples.

Results

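The libraries described here are the 5 control prostate libraries of a mouse study of chlordecone, 2 from the first generation (F1) and 3 from the third (F3), of 11 libraries analysed. They were taken by their label (control, with the generation), and the rest of the series, 6 libraries of males descended from chlordecone-dosed females, enters only where named. Per the labels' protocols, pregnant females (F0) of the exposed line received chlordecone, an organochlorine insecticide also called kepone, at 100 µg/kg/day over a part of gestation that began at embryonic day 6.5 and ended before birth, and their offspring were bred on to F3. Both control groups are labelled only as control males of their generation. A vehicle, the strain, the age, the lobes dissected and whether a sample is 1 animal or a pool are not stated by the labels. The p-values below thus refer to the spread among these libraries alone, which may be technical. All samples are labelled prostate, and libraries were stranded and poly-A selected. The labels list 12 samples, and F1 control 3 was not analysed here.

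The prostate is a male accessory gland whose luminal epithelial cells secrete proteins into the seminal fluid, among them probasin and a transglutaminase that cross-links the copulatory plug. The neighbouring seminal vesicle secretes the clotting proteins of the plug, the seminal vesicle secretory (Svs) proteins, and its ducts run beside the prostate lobes. Both glands depend on androgen, and each makes its few main products at very high level, so that a small number of genes can take a large share of a library. In bulk tissue, fewer cells of a type and less RNA per cell cannot be told apart.

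Generation, dissection and the processing of the deposited tables all change together between the 2 control sets, so a difference between F1 and F3 libraries cannot be told apart from a difference between tables. The F1 libraries held 17228539 and 18740109 counts, and the F3 libraries held 71672418 to 114762135. For F1 19091 genes were listed and for F3 26023, of which 17039 were in both and carried 99.4% of F1 and 95.7% to 96.4% of F3 counts. All levels below are shares of the counts on those joined genes, as CPM (counts scaled to a library total of 1000000), unless stated. In an edgeR quasi-likelihood fit of the 5 libraries, 10804 of 16224 tested genes (66.6%) passed an adjusted p of 0.05, 5405 (33.3%) higher in F3 and 5399 (33.3%) lower. For 78.0% of tested genes the 2 sets did not overlap. The median log2 difference (F3 minus F1) was -0.05 and its SD over genes 2.96. Scaling and filtering moved that median. It was -0.21 with DESeq2 size factors. With the main scaling it was 0.21 over the 13946 genes with a mean of at least 1 CPM. A call alone therefore says little here, and members of each list are read against these shares. Of the libraries, F3 control 1 stood apart by low smooth muscle transcripts and F3 control 2 by high adipose transcripts, as given below.

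To show how far the 2 sets of libraries differ in genes that every cell uses, 75 ribosomal protein genes were followed. This list was chosen after the data were seen, and the cause of its differences was not tested. Between 2 libraries of 1 set, the SD of their log2 ratios was 0.21 to 0.27. Between the sets it was 1.88, with a median of 0.01 and a range from -2.63 for Rps14 to 9.55 for Rpl30, and 22 of the 75 were higher and 24 lower in F3. Rpl30 stood at 0.817 and 0.269 CPM in F1 and at 425, 316 and 298 CPM in F3. Rps27, another ribosomal protein gene, stood at 4.26 and 1.88 CPM in F1 and at 835, 1279 and 1152 CPM in F3. Many ribosomal protein genes have near-identical copies, and where reads were assigned is uncertain. This range, -2.63 to 9.55, is given below beside the differences of the secretory genes. Its upper end is set by Rpl30, with Rps27 at 8.67, and is far from the SD of 1.88. Lying within the range therefore says little for a gene higher in F3.

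The 2 sets shared the shape of their abundance but not the genes at its top. The 3 most counted genes took 25.1% and 25.2% of the counts of the F1 libraries and 26.2%, 22.7% and 23.2% of those of the F3 libraries. In F1 control 1 the most counted gene was Pbsn (9.63% of counts) and in F1 control 2 it was Svs4 (9.29%). In all 3 F3 libraries it was 9530053A07Rik, at 16.8%, 12.1% and 13.3%.

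The bases just before the RefSeq start of the 4 marker genes and of neighbouring Svs genes are shown. The markers are abundant listed products, and the Svs genes lie together on chromosome 2 and differ together. Each line holds the 60 bases before the RefSeq start (GRCm38.p6), 5′ to 3′ on the gene's strand, with TATAAA, the core of the TATA box, in capitals where it occurs.
Svs4: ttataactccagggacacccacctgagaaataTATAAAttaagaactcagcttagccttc
Svs5: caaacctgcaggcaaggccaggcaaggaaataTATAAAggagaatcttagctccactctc
Svs6: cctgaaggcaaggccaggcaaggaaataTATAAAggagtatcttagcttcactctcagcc
Svs3a: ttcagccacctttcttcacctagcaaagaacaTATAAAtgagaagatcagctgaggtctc
Svs2: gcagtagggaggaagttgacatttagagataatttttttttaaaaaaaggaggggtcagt
Pbsn: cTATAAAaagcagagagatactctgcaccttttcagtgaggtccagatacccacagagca
Tgm4: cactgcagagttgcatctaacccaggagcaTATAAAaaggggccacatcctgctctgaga
9530053A07Rik: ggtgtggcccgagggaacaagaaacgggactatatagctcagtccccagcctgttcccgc

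The windows lie at chr2:164278308-164278367 (Svs4, minus strand), chr2:164332705-164332764 (Svs5, plus), chr2:164316691-164316750 (Svs6, plus), chr2:164289207-164289266 (Svs3a, plus), chr2:164238342-164238401 (Svs2, minus), chrX:77853501-77853560 (Pbsn, minus), chr9:123034681-123034740 (Tgm4, plus) and chr7:28129406-28129465 (9530053A07Rik, plus). TATAAA began 28 bases before the start in Svs4, Svs5 and Svs3a, 32 in Svs6, 30 in Tgm4 and 59 in Pbsn, and was not found in the windows of Svs2 and 9530053A07Rik. It was on the gene's strand in 2.87% of the 32851 promoter windows of the same length, and on either strand in 3.92%. Aligned at the start without gaps, Svs4 shared 30 of 60 bases with Svs5, 30 with Svs3a, 20 with Svs6 and 18 with Svs2. TATAAA begins 32 bases before the start in Svs6 and 28 in Svs4, so this alignment does not set these 2 motifs side by side. The count for Svs6 therefore does not tell how alike the 2 windows are. With the windows of Pbsn, Tgm4 and 9530053A07Rik, Svs4 shared 14, 16 and 22. For Svs4, Pbsn and Svs2 the window lies inside the gene span of the reference annotation. For Svs5 and Tgm4 it overlaps that span. Svs3a has 2 RefSeq starts, of which the first listed was used. A match is a description of the letters only.

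Seminal vesicle products were abundant in the F1 control libraries and, but for 1 member, low in the F3 control libraries. The 10 measured members took 15.6% and 16.2% of F1 counts and 0.819%, 1.09% and 0.896% of F3 counts. All 10 were lower in F3 past the threshold, against 33.3% of all tested genes, with a median log2 difference of -10.84 against -0.05 over all genes. Nearly all of the F3 sum came from 1 member, 9530002B09Rik. Without it, a split made after its values were seen, the other 9 summed to 13.6% and 14.2% of F1 counts and to 47.4, 73.5 and 11.7 CPM in F3.

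Svs4, an androgen-dependent seminal vesicle secretory protein (chr2:164275952-164278459, minus strand), stood at 86720 and 92860 CPM in F1 and at 25.7, 44.9 and 7.13 CPM in F3. The sets lay far apart, and F3 control 3 was the lowest of all. The log2 difference was -11.53 (SE 0.81, adjusted p = 2.5e-06, edgeR), beyond the lowest ribosomal protein gene. Per length, Svs4 was the most abundant transcript of the F1 controls, at 207600 and 224200 on a TPM-like scale, which divides counts by annotated exon length before scaling, and ranked 1205 in F3.

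The other Svs genes followed the same order. Svs5 stood at 21940 and 22590 CPM in F1 and at 12.8, 16.6 and 2.61 CPM in F3, a log2 difference of -10.79 (SE 0.78, adjusted p = 2.93e-06). Svs6 stood at 5724 and 6149 CPM against 2.64, 4.52 and 1.02 CPM. Svs2, a main clotting protein of the copulatory plug, stood at 4379 and 3662 CPM against 1.90, 0.813 and 0.164 CPM. Svs4, Svs5, Svs6 and Svs2 lie within 1 cluster on chromosome 2 with Svs3a and Svs3b, the least abundant pair, at 711 and 690 CPM (Svs3a) and 221 and 190 CPM (Svs3b) in F1. In F3 neither exceeded 2.66 CPM. Svs3a and Svs3b are close relatives, and how reads were split between them is uncertain. Svs1, on chromosome 6, stood at 306 and 274 CPM in F1 and at 0.198, 0.595 and 0 CPM in F3.

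Members outside the Svs family were as far apart. Pate4, a small secreted protein of the seminal vesicle, stood at 12210 and 12520 CPM in F1 and at 1.82, 1.96 and 0.419 CPM in F3, a log2 difference of -12.89 (SE 0.69). Sva, seminal vesicle antigen, stood at 3563 and 3179 CPM against 0.271, 0.508 and 0.1001 CPM, a difference of -13.36 (SE 0.55), the lowest of the list. Pate4 shares 20.2% of its exon bases with a gene on the other strand, so its count is uncertain. Of all tested genes 78.0% did not overlap between the sets, in either direction. In each of these 9 genes both F1 libraries lay above all F3 libraries. Their direction and call held in all 131 gene-by-alternative values computed, with a highest adjusted p of 0.000529.

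9530002B09Rik, listed with the seminal vesicle products, behaved differently. It stood at 20480 and 19790 CPM in F1 and at 8140, 10830 and 8946 CPM in F3, and ranked 4 per length in both sets. The log2 difference was -0.91 (SE 0.24, adjusted p = 0.00685), within the range of the ribosomal protein genes. It turned to 0.72 (adjusted p = 0.0167) with an offset for exon length, and lost the call without F1 control 1 (adjusted p = 0.13) or F1 control 2 (0.0916).

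Within the F3 controls, most seminal vesicle transcripts stood in the same order of libraries. The share of all genes with this order is not given here. Some members stood near the floor, with Sva at 26, 35 and 11 counts and Svs1 at 19, 41 and 0 counts. F3 control 2 was above F3 control 3 for 10 of 10 members and above F3 control 1 for 9 of 10. F3 control 3 exceeded F3 control 1 for 1 of 10. Svs2 was the member whose highest F3 value lay in control 1. The 2 F1 libraries were nearly level, with a ratio of 1.04 between their sums.

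**Figure D1:**
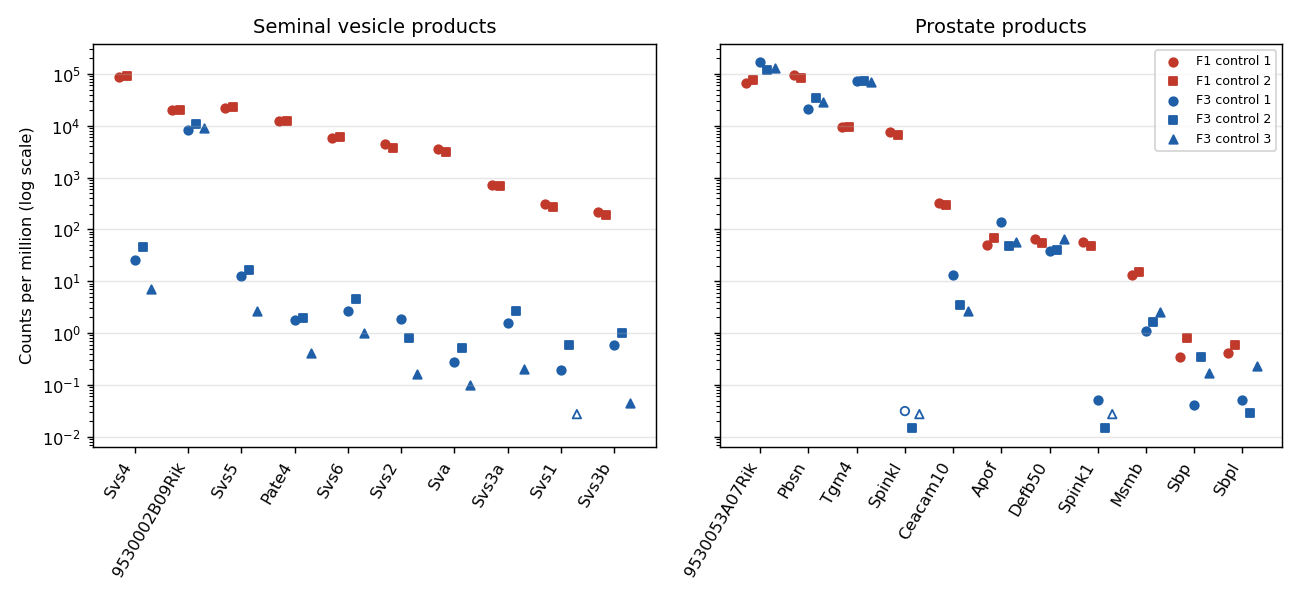
Level in CPM (log axis) of the 10 seminal vesicle products (left) and 11 prostate products (right) in each control library, 1 symbol per library, F1 in red and F3 in blue. Open symbols mark 0 counts and are drawn at the level of 3 counts. Svs4 lies at 86720 and 92860 CPM in F1 and between 7.13 and 44.9 CPM in F3, while 9530002B09Rik, Apof and Defb50 lie close together in both sets.

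Prostate products were abundant in both sets, with different members leading. The 11 listed genes took 18.1% and 17.6% of F1 counts and 26.2%, 22.7% and 23.2% of F3 counts. In the fit, 2 were higher in F3, 5 lower and 4 did not pass, against 33.3% higher and 33.3% lower among all tested genes. The median of the list was -1.48 against -0.05 over all genes. Per length, Pbsn, Tgm4 and 9530053A07Rik ranked 1, 2 and 3 in the F3 controls, and 2, 20 and 8 in the F1 controls.

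Pbsn, probasin, a lipocalin-family secretory protein of the mouse prostate, stood at 96280 and 81920 CPM in F1 and at 20650, 34130 and 28530 CPM in F3. All F1 values lay above all F3 values, where 78.0% of all tested genes did not overlap in either direction. The log2 difference was -1.48 (SE 0.29, adjusted p = 0.00128), within the ribosomal protein range. It was -0.04 (adjusted p = 0.882) with the exon length offset, and the call was lost without F1 control 1 (-1.34, adjusted p = 0.0714). On the TPM-like scale its mean was 173600 in F1 and 92770 in F3.

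Tgm4, the prostate transglutaminase that cross-links plug proteins, stood at 9303 and 9362 CPM in F1 and at 73040, 72200 and 70620 CPM in F3. Libraries of each set agreed closely, and the sets lay 7.71-fold apart. The log2 difference was 3.16 (SE 0.30, adjusted p = 1.36e-05), and it ranged from 3.00 to 3.22 over the alternatives. This difference lies within the ribosomal protein range, which is wide on the higher side. Tgm4 (chr9:123034726-123067561, plus strand) shares 18.2% of its exon bases with the other strand, where Zdhhc3, a palmitoyltransferase gene, runs at chr9:123066160-123113205. Zdhhc3, named after its values were seen, stood at 8723 and 8665 CPM in F1 and at 91.1, 163 and 72.0 CPM in F3. In F1 it was thus nearly as high as Tgm4. Whether reads of the shared bases were counted by strand is not given in the sources used here, and the Tgm4 level of the F1 libraries is uncertain.

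9530053A07Rik, a gene of a long transcript with 11843 annotated exon bases, stood at 67560 and 77000 CPM in F1 and at 167900, 120900 and 132600 CPM in F3. All F3 values were higher, where 78.0% of all tested genes did not overlap in either direction. The log2 difference was 1.18 (SE 0.33, adjusted p = 0.00902), within the ribosomal protein range, and it lost the call without either F1 library (adjusted p = 0.259 and 0.188). In each such fit 1 F1 library is left and is assumed to vary like the F3 libraries.

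Of the other members, 4 were lower in F3 and none higher. Spinkl, a Kazal-type serine protease inhibitor-like gene, ranked 5 per length in F1, at 7564 and 6738 CPM, and had 1 count in the 3 F3 libraries together. The pooled F1-to-F3 ratio was 1960000 with a 95% counting interval from 352000 to 77400000. Spink1, a Kazal-type trypsin inhibitor, stood at 58.1 and 47.4 CPM in F1 and at 0.0521, 0.0145 and 0 CPM in F3. Ceacam10, a secreted carcinoembryonic antigen relative, stood at 322 and 290 CPM against 13.0, 3.51 and 2.65 CPM. These 3 lay below the ribosomal protein range, at -20.08, -10.90 and -5.33. Ceacam10 is also known as a secretion of the seminal vesicle, so the list's name does not place these genes in 1 gland. In the F1 chlordecone libraries Spinkl ranged from 10.7 to 12300 CPM, Ceacam10 from 8.003 to 640 CPM and Spink1 from 0.214 to 145 CPM. Seminal vesicle products did not vary there as 1 set. Sva ranged from 3.18 to 5881 CPM, Svs6 from 72.2 to 10790 CPM and Svs1 from 0.607 to 535 CPM, and Svs3a and Svs3b also varied widely. Others stayed high in every F1 chlordecone library: Svs4 from 31350, Svs5 from 51660, Pate4 from 40680, Svs2 from 24610 and 9530002B09Rik from 5975 CPM upward. Whether Spinkl, Ceacam10 and Spink1 follow the seminal vesicle was not tested. Spinkl, Ceacam10 and Spink1 are 3 of the 5 lower calls of the prostate product list. Msmb, the prostate secretory protein beta-microseminoprotein, stood at 13.1 and 14.8 CPM against 1.09, 1.67 and 2.54 CPM. Its difference of -2.79 (adjusted p = 0.000109) was -0.75 (adjusted p = 0.0787) with the exon length offset and -2.74 (adjusted p = 0.0664) in 1 fit of all libraries.

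The 4 members that did not pass the test stood at or below 142 CPM in every control library. Apof stood at 50.3 and 67.2 CPM in F1 and at 142, 48.3 and 58.0 CPM in F3 (adjusted p = 0.154). Defb50, a beta-defensin gene, stood at 65.3 and 55.2 CPM against 37.9, 40.7 and 65.2 CPM (adjusted p = 0.61). Sbp, the spermine-binding protein known as a product of the ventral lobe, did not exceed 0.806 CPM in any control library, and Sbpl, its relative, did not exceed 0.591 CPM. Sbp and Sbpl are similar genes, and how reads were split between them is uncertain.

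Ren1, renin, and the mitochondrial genes were analysed in F3 only. Ren1 took 0.720%, 0.335% and 0.543% of all counts of the F3 control libraries, and 27 mitochondrial genes 0.792%, 0.872% and 0.993%.

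Luminal and basal epithelial transcripts were mostly higher in the F3 controls. Of 11 luminal genes, 8 were higher, 1 lower and 2 did not pass, against 33.3% higher among all genes. The median log2 difference was 1.87 and the range -2.25 to 3.61. The luminal genes named here all stood higher in F3, while the 1 lower member and the 2 that did not pass are not named. Their sum was 1775 and 1693 CPM in F1 and 6321, 6776 and 7624 CPM in F3. Cd24a, a surface glycoprotein of epithelium, stood at 527 and 489 CPM against 1909, 2656 and 2925 CPM. Hoxb13, a homeobox factor of the prostate, stood at 187 and 208 CPM against 531, 606 and 514 CPM. The luminal keratins Krt8 and Krt18 were 3.16- and 3.39-fold higher.

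Tmprss2, an androgen-regulated membrane protease named after its values were seen, stood at 42.9 and 40.4 CPM against 436, 459 and 420 CPM. The differences of these named luminal genes lie within the ribosomal protein range, which is wide on the higher side.

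Of 9 basal genes, 7 were higher, none lower and 2 did not pass, against 33.3% higher and 33.3% lower among all tested genes. The median was 1.66. Krt5 and Krt14, the paired keratins of basal cells, stood at 3.15 and 5.48 CPM (Krt5) and 1.52 and 0.859 CPM (Krt14) in F1. In F3 they stood at 34.3, 54.9 and 44.7 CPM and at 21.9, 24.5 and 22.7 CPM. Krt15, another basal keratin, stood at 23.1 and 34.8 CPM against 68.8, 76.6 and 66.5 CPM, and Itga6 and Itgb4, the subunits of a basal integrin, were 1.39- and 3.50-fold higher. The Itga6 call was lost without F1 control 1 (adjusted p = 0.0719) or F1 control 2 (0.0911).

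**Figure D2:**
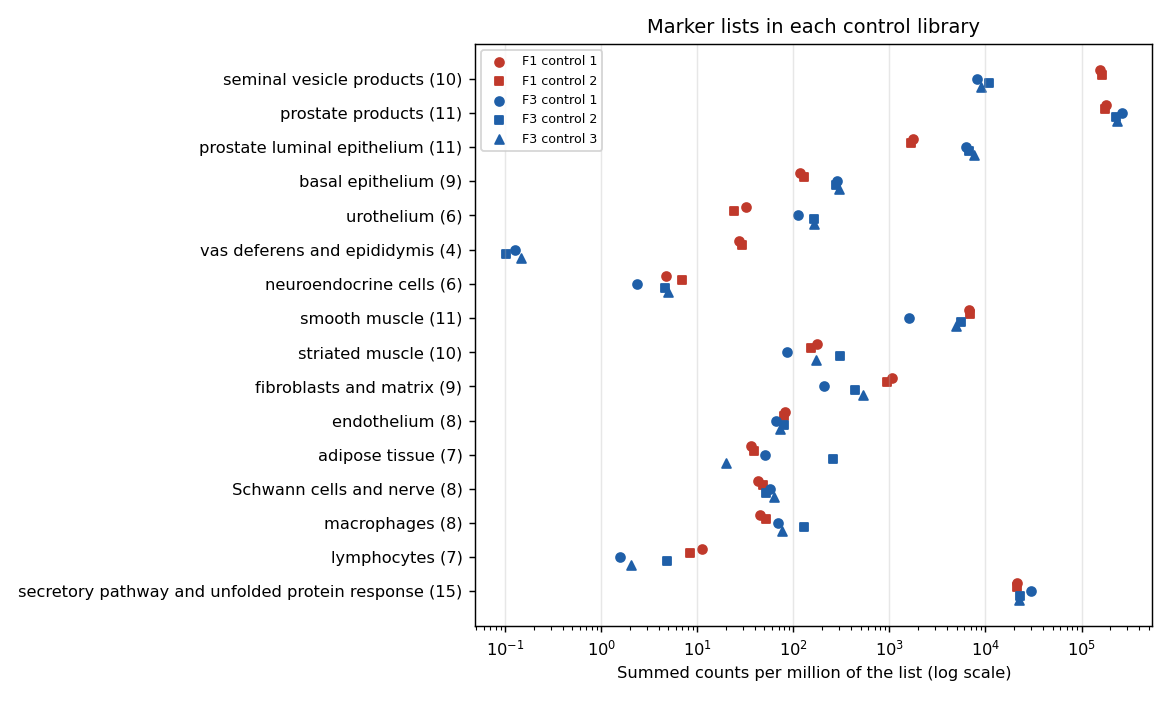
Summed CPM (log axis) of marker lists in each control library, with the number of genes measured in both tables in brackets, F1 in red and F3 in blue. The luminal list lies at 1775 and 1693 CPM in F1 and between 6321 and 7624 CPM in F3, and the smooth muscle sum of F3 control 1 (1606 CPM) lies apart from the other 4 libraries.

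Transcripts of the endoplasmic reticulum, where secreted proteins are folded, were high in both sets. The 15 genes summed to 21150 and 21290 CPM in F1 and to 29930, 23100 and 22180 CPM in F3. Of them 8 were higher, 3 lower and 4 not past the threshold, against 33.3% higher and 33.3% lower among all tested genes. The median was 1.04. Hspa5, the chaperone BiP, stood at 2099 and 2131 CPM against 6910, 5168 and 4132 CPM. Pdia6, a disulfide isomerase, stood at 2042 and 2130 CPM against 5919, 4790 and 5222 CPM, and Calr, calreticulin, was 2.19-fold higher. Hsp90b1, the chaperone GRP94, went the other way, at 8222 and 8562 CPM against 5167, 3139 and 3712 CPM, and lost its call without either F1 library (adjusted p = 0.127 and 0.13). Pdia3 did not pass (adjusted p = 0.881).

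Polyamine genes were followed because prostate secretes polyamines. Of 6 measured, 4 were higher, 1 lower and 1 did not pass, against 33.3% higher and 33.3% lower among all tested genes. Odc1, ornithine decarboxylase, stood at 15.9 and 21.7 CPM in F1 and at 70.5, 95.4 and 68.6 CPM in F3. Oaz1, the antizyme that restrains it, stood at 1.46 and 1.67 CPM against 393, 599 and 396 CPM. That is a 296-fold difference in a gene that most cells express. Azin1, the antizyme inhibitor, was 1.89-fold lower, a call lost in 1 fit of all libraries (adjusted p = 0.171), and Sms, spermine synthase, was 1.25-fold higher. The Sms call was lost under several alternatives, with a highest adjusted p of 0.163. Immediate early and heat shock genes, which respond to handling of tissue, summed to 257 and 292 CPM in F1 and to 258, 299 and 303 CPM in F3, with 2 higher, 3 lower and 6 not past the threshold.

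Beyond the lists, metallothioneins and an antioxidant enzyme were among the first 15 transcripts per length in F3 and not in F1. Mt1 and Mt2, metal-binding proteins, ranked 10 and 7 in F3 and 176 and 104 in F1. Mt1 stood at 238 and 268 CPM in F1 and at 2232, 3478 and 2105 CPM in F3, and Mt2, which shares 73.5% of its exon bases with the other strand, at 215 and 220 against 1576, 2097 and 1825 CPM. Prdx6, a peroxiredoxin, ranked 8 in F3 and 59 in F1, at 2946 and 3297 CPM against 15640, 15960 and 10650 CPM. B2m, the light chain of class I major histocompatibility molecules, was 2.09-fold higher. Eef1a1, a translation elongation factor, stood at 9776 and 11640 CPM in F1 and at 9985, 12550 and 9595 CPM in F3 (adjusted p = 0.469), and ranked 12 and 6. The annotated microRNA locus Mir6236 ranked 5 per length in F3, at 576, 1225 and 903 CPM. The other genes among the first 15 in F1 were Rps14, Gm5615, Rps15, Rpl41 and Rpl36, and those in F3 were Rplp1, Rps15, Rpl41 and Rpl32. Rps14, lowest of the ribosomal protein genes between the sets, stood at 11720 and 12440 CPM in F1 and at 1053, 2086 and 1990 CPM in F3. Gm5615 was 3.98-fold lower in F3.

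The most extreme differences were read among called genes without overlap between the sets and with a mean of at least 1 CPM. Numbered gene models, clones and Rik symbols were left out. The genes so named were mostly low ones. Of the 12 lowest, Spinkl, Sva and Pate4 are described above, and Spink11, a Kazal inhibitor-like gene, stood at 62.2 and 51.6 CPM in F1 with 1 count in F3. The other 8 had 0 counts in all 3 F3 libraries, and are given as bounds against 3 counts over the F3 set. Nol4 was at least 2230-fold lower, Actl7b 2090-fold, Rbmxl2 1930-fold and Morc2b 1820-fold, and Ankrd36, Fam243, Gpr61 and Slc35g3 between 1220- and 1390-fold. Actl7b, Rbmxl2 and Morc2b are known as germ cell genes of the testis. Akap4, the sperm fibrous sheath gene and the 1 member of the testis and sperm list measured in both tables, stood at 2.51 and 0.913 CPM in F1 and had 1 count in F3. Actl7b shares 90.9% of its exon bases with the other strand. Of 11 genes with a mean of at least 10 CPM in F1 and no count in F3, 4 had a single exon block, against 3.88% of all joined genes. The share was 9.01% over all 444 genes with no count in F3 and 7.89% over the 190 with no count in F1. Among tested genes, the 610 with 1 exon block had a median difference of -2.42 and 63.1% were lower, against 0.00 and 32.1% for the 15614 with more.

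The 12 highest included Oaz1, Rpl30 and Rps27, which most cells express. Gna12, a G protein subunit, stood at 0.292 and 0.0537 CPM in F1 and at 50.8, 51.3 and 49.9 CPM in F3. Rab11fip4, Mir6240 and Wdr89 lay at or below 1.17 CPM in F1 and at or above 49.9 CPM in F3. Slpi, a secreted leukocyte protease inhibitor, had no count in F1 and stood at 4.42, 60.3 and 23.4 CPM in F3, at least 350-fold higher against 3 counts over the F1 set. Rnd1, Oas1a and Fcer1g were also without a count in F1, and were at least 48.2-, 34.8- and 28.1-fold higher. Upk3b, found in mesothelium as well as urothelium, stood at 0.234 and 0.107 CPM in F1 and at 6.83, 50.4 and 32.5 CPM in F3.

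The difference between the sets moved with gene length. The median log2 difference was -3.64 over the 127 tested genes of up to 500 annotated exon bases, -1.51 over the 488 of 500 to 1000, and -0.50 over the 2021 of 1000 to 2000. It was -0.02, 0.15 and -0.01 in the 3 longer classes. Of the genes up to 500 bases 65.4% were lower in F3, and of those of 4000 to 8000 bases 29.0%. The seminal vesicle products range from 535 to 2775 bases, and under an offset for exon length Svs4 differed by -9.79 (adjusted p = 1.54e-06). Malat1, a long nuclear RNA of 6983 bases, named after its values were seen, stood at 4067 and 3129 CPM in F1 and at 41.9, 36.8 and 36.3 CPM in F3.

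**Figure D3:**
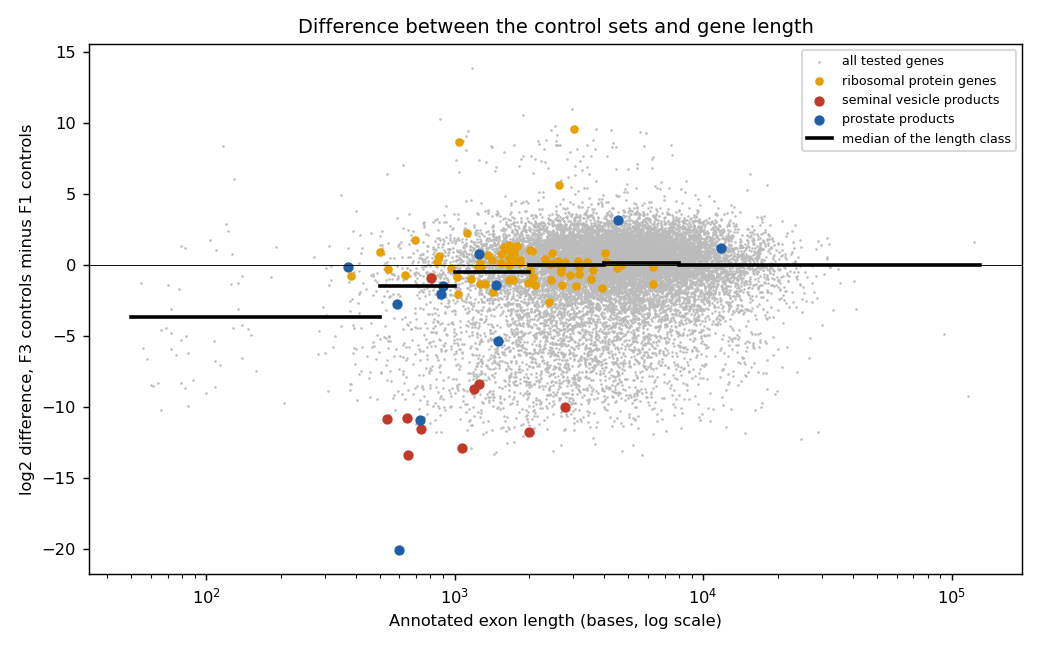
The log2 difference (F3 controls minus F1 controls) of every tested gene against its annotated exon length in bases (log axis), with ribosomal protein genes in orange, seminal vesicle products in red, prostate products in blue and the median of each length class as a black bar. The bar falls to -3.64 for the shortest genes, and all seminal vesicle products but 9530002B09Rik lie between -13.36 and -8.42.

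Smooth muscle transcripts, which come from the stroma around the glands, varied within F3. The 11 genes summed to 6805 and 6962 CPM in F1 and to 1606, 5507 and 4991 CPM in F3. Every one of the 11 was higher in F3 control 2 and in F3 control 3 than in F3 control 1. In the fit 2 were higher in F3, 4 lower and 5 did not pass, against 33.3% higher and 33.3% lower among all tested genes. The median was -0.59. Myh11, smooth muscle myosin, stood at 128 and 131 CPM in F1 and at 305, 678 and 874 CPM in F3. Acta2, smooth muscle actin, stood at 567 and 543 CPM against 236, 815 and 675 CPM and did not pass (adjusted p = 0.602). Cnn1, calponin, did not pass either (adjusted p = 0.258). Tagln, transgelin, stood at 2313 and 2287 CPM against 283, 1320 and 1050 CPM, but shares 67.9% of its exon bases with the other strand. Without F3 control 1, Acta2 differed by 0.59 (adjusted p = 0.0237), Tagln by -0.79 (0.00835), Tpm2 by -1.10 (0.000863), Cnn1 by -0.19 (0.457) and Myh11 by 2.74 (6.18e-06). The Tagln call was lost in 6 of 13 alternatives. These included the DESeq2 Wald test (adjusted p = 0.0508), 1 fit of all libraries (0.0702), the exon length offset (0.0861) and leaving out F3 control 3 (0.0533). It was also lost without F1 control 1 (-1.16) or F1 control 2 (-1.22), where 1 F1 library is left. Tpm2, a tropomyosin, was 3.16-fold lower, a call lost without F1 control 2 (adjusted p = 0.0588).

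Fibroblast and matrix transcripts, like those of smooth muscle, were lowest in F3 control 1. They summed to 1072 and 944 CPM in F1 and to 207, 438 and 533 CPM in F3, and all 9 were higher in F3 controls 2 and 3 than in F3 control 1. F3 control 2 was above F3 control 3 for 1 of 9 fibroblast genes, against 8 of 11 smooth muscle genes. Of the 9, 1 was higher in F3, 3 lower and 5 did not pass, against 33.3% higher and 33.3% lower among all tested genes. The median was -0.27. Dcn, the matrix proteoglycan decorin, made up most of the F1 sum, at 791 and 660 CPM against 103, 207 and 216 CPM. Postn, periostin, stood at 46.4 and 47.9 CPM against 5.55, 10.3 and 16.9 CPM. Without F3 control 1, Dcn differed by -1.61 (adjusted p = 8.37e-05) and Postn by -1.64 (0.000491). Col3a1, Fn1 and Col1a2, a collagen chain, fibronectin and another collagen chain, did not pass.

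Adipose transcripts stood out in 1 library. They summed to 36.2 and 39.2 CPM in F1 and to 51.2, 261 and 19.9 CPM in F3, and F3 control 2 was highest of the F3 set for 7 of 7 genes. Adipoq, adiponectin, stood at 1.28 and 8.65 CPM in F1 and at 4.71, 25.6 and 0.446 CPM in F3. Cfd, adipsin, stood at 2.28 and 2.58 CPM against 8.55, 97.2 and 2.57 CPM. In the fit 2 were higher (Cfd and Cidec) and 5 did not pass, against 33.3% higher among all tested genes. Without F3 control 2 the Cfd difference was 1.49 (adjusted p = 0.0672) against 4.11 with it. The calls of Cfd (adjusted p = 0.117 and 0.115) and Cidec (0.108 and 0.101) were also lost without F1 control 1 or 2. Fabp4, a fatty acid carrier, turned to -0.19 and Adipoq to -0.62 without that library.

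Other tissues that a dissection can carry were low or level. Striated muscle genes summed to 176 and 152 CPM in F1 and to 85.0, 304 and 174 CPM in F3, most of it Acta1, the skeletal actin, at 140 and 125 CPM against 77.7, 286 and 158 CPM. None of the 8 tested was higher, 4 were lower and 4 did not pass, against 33.3% higher and 33.3% lower among all tested genes. Acta1 and Acta2 are close relatives, and how reads were split between them is uncertain. Urothelial genes, of the bladder and urethra lining, summed to 31.9 and 24.1 CPM against 113, 162 and 165 CPM. Of the 5 tested, 3 were higher, 1 lower and 1 did not pass, and Upk1b, at 26.0 and 20.7 CPM against 100, 106 and 126 CPM, made up most of the sum. The calls of Upk1a and Upk3a were each lost under several alternatives, with highest adjusted p of 0.187 and 0.243. Vas deferens and epididymis genes were near the floor in F3. Akr1b7, an aldo-keto reductase known from the vas deferens, stood at 17.1 and 16.9 CPM in F1 and at 0.104, 0.0581 and 0.146 CPM in F3. Crisp1, an epididymal sperm-coating protein, stood at 9.69 and 11.6 CPM against 0.0208, 0.0290 and 0 CPM. Adam7 and Rnase10 had too few counts to be tested.

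Vessel, nerve and blood transcripts gave no common direction. Among all tested genes 33.3% were higher and 33.3% lower in F3. Endothelial genes summed to 81.9 and 80.5 CPM in F1 and to 66.7, 80.1 and 72.8 CPM in F3, with 3 higher, 2 lower and 3 not past the threshold. Vwf, the von Willebrand factor, was 4.65-fold higher, while Cldn5, a tight junction protein of endothelium, was 6.76-fold lower. Schwann cell genes summed to 43.0 and 48.3 CPM against 57.5, 51.5 and 62.4 CPM, with 1 higher, 4 lower and 3 not past the threshold. Mbp, myelin basic protein, stood at 10.5 and 9.51 CPM against 50.1, 42.1 and 54.4 CPM. Alas2, a haem synthesis enzyme of red cells, stood at 3.21 and 1.88 CPM against 7.37, 14.7 and 11.5 CPM. Within the endothelial list, Vwf and Cldn5 thus stood in opposite order between the sets.

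Immune transcripts were low. Macrophage genes summed to 44.4 and 52.1 CPM in F1 and to 68.8, 128 and 76.3 CPM in F3, and F3 control 2 was above F3 control 3 for 8 of 8 and above F3 control 1 for 7 of 8. Of the 8, 5 were higher, 1 lower (Mrc1, the mannose receptor) and 2 did not pass. Among all tested genes 33.3% were higher and 33.3% lower. The complement genes C1qa and C1qc stood at 5.72 and 4.46 CPM (C1qa) and 1.11 and 0.537 CPM (C1qc) in F1, and at 12.3, 18.0 and 14.3 CPM and 8.12, 12.2 and 8.61 CPM in F3. Lymphocyte genes summed to 11.1 and 8.49 CPM against 1.58, 4.81 and 2.05 CPM, with 2 of 7 lower and 5 not past the threshold. Neuroendocrine genes summed to 4.73 and 6.93 CPM against 2.37, 4.66 and 4.96 CPM, with 1 higher, 2 lower and 2 not past the threshold of 5 tested. Chga, chromogranin A, was the 1 higher, and its call was lost under several alternatives, with a highest adjusted p of 0.197.

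Y-linked genes had counts in every library. Xist, the RNA of the inactive X, did not exceed 4.55 CPM in F1 and 0.0290 CPM in F3. The Y-linked genes differed unequally: Ddx3y stood at 309 and 304 CPM in F1 and at 26.5, 27.3 and 41.7 CPM in F3, and Uty at 110 and 98.7 CPM against 21.7, 23.4 and 26.8 CPM. Kdm5d, in contrast, stood at 14.5 and 7.95 CPM against 25.0, 19.4 and 27.2 CPM, and Eif2s3y did not pass (adjusted p = 0.0876).

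Libraries of the F1 set were closer to each other than those of the F3 set. Between F1 controls 1 and 2, 0 of 2200 genes of at least 50 CPM were over 2-fold apart, and the SD of their log2 ratios was 0.20. Between pairs of F3 controls, 1.13% to 2.40% of 3050 to 3205 such genes were over 2-fold apart, with an SD of 0.38 to 0.43. The F1 pair still differed beyond counting error, with a chi-square per degree of freedom of 48.0, and was counted as 2 samples by its labels. Between pairs of F1 chlordecone libraries 8.70% to 26.2% of genes were over 2-fold apart, and between pairs of F3 chlordecone libraries 0.464% to 0.58%.

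Genes with the widest range within each set were taken among those with a mean of at least 50 CPM there. Numbered gene models, clones and Rik symbols were left out. Chosen from their values and so given without a test, the genes showed single libraries apart in F3. Ceacam2, an adhesion molecule, stood at 388 CPM in F3 control 1 and at 13.0 and 14.8 CPM in controls 2 and 3, beside 18.1 and 13.8 CPM in F1. Slc25a30, a mitochondrial carrier, was low in F3 control 2, at 27.7 CPM beside 220 and 139 CPM. Igfbp7, a secreted growth factor binding protein, was high in F3 control 3, at 135 CPM beside 23.0 and 26.8 CPM, and Adgre5, an adhesion receptor of leukocytes, was low there, at 10.8 CPM beside 55.9 and 89.5 CPM. Scand1 stood at 13.9, 43.1 and 119 CPM, and S100a6, a calcium-binding protein, at 26.8, 104 and 129 CPM. In F1 the widest were narrower: Ceacam1 at 85.2 and 45.7 CPM, Arfgef3 at 107 and 58.9 CPM and Rangap1 at 50.4 and 85.0 CPM, followed by Mbnl2, Pkn2 and Nudt16l1.

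**Figure D4:**
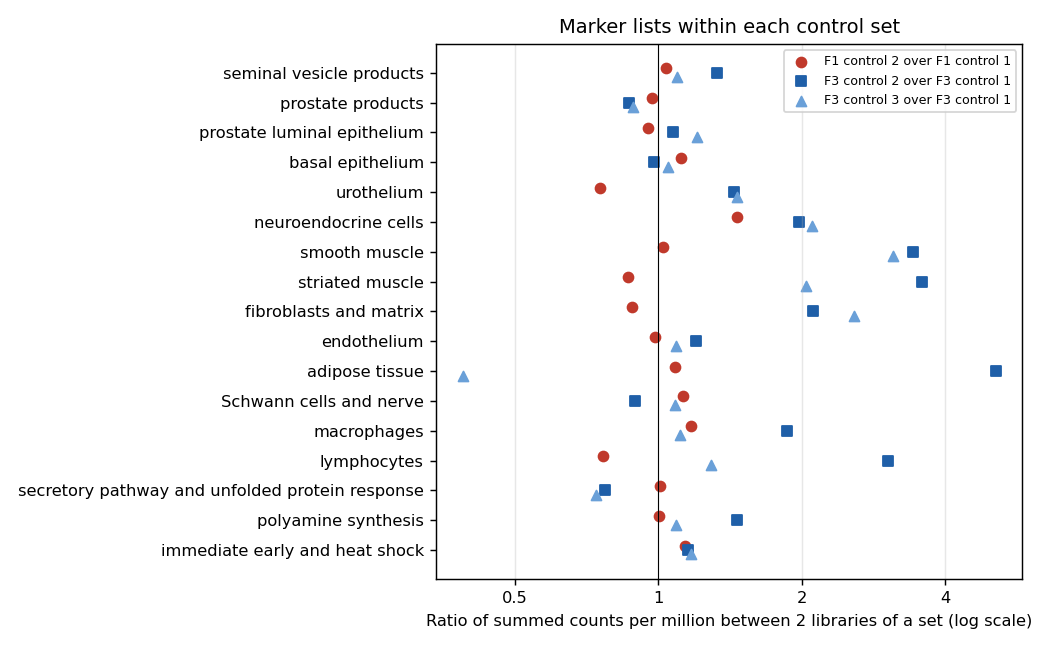
Ratio (log axis) of the summed CPM of 17 lists between 2 libraries of 1 control set, F1 control 2 over 1 in red and F3 controls 2 and 3 over 1 in blue. Lists with a sum near the floor in a set or with 1 measured gene, and the sex-linked genes, are not drawn. The F1 ratios drawn lie between 0.753 and 1.46, while in F3 control 2 smooth muscle stands at 3.43, striated muscle at 3.58 and adipose tissue at 5.11 times F3 control 1.

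The same contrast was then read in libraries that share no sample with the controls. Between F3 and F1 chlordecone libraries, 10448 of 15747 tested genes (66.3%) passed, 5247 (33.3%) higher in F3 and 5201 (33.0%) lower. Of the 10235 genes called between the control sets and tested there, 9793 (95.7%) had the same sign and 8248 (80.6%) were also called with it. The chlordecone libraries come from the same 2 tables and generations, so this does not tell tables and generations apart.

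Seminal vesicle products kept their order there. They took 19.7% to 45.7% of F1 chlordecone counts and 0.767% to 1.04% of F3 chlordecone counts, and 9 of 10 were lower in F3, all but 9530002B09Rik (0.41, adjusted p = 0.298). Svs4 differed by -13.79. Prostate products took 7.75% to 11.5% in F1 and 22.8% to 26.8% in F3, with Pbsn at -1.64, Tgm4 at 4.37 and 9530053A07Rik at 2.74. The luminal list had 7 higher and 2 lower of 11, and the basal list 8 higher of 9. Among all genes tested there, 33.3% were higher and 33.0% lower. Smooth muscle, with 2 higher and 4 lower in the controls, had 0 higher and 10 lower of 11, and macrophages, with 5 higher in the controls, had 1 higher and 2 lower of 8. Whether these lists differ between the control and chlordecone contrasts was tested only gene by gene. In a fit of all 11 libraries the difference of the contrasts passed for 122 of 16980 genes.

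**Figure D5:**
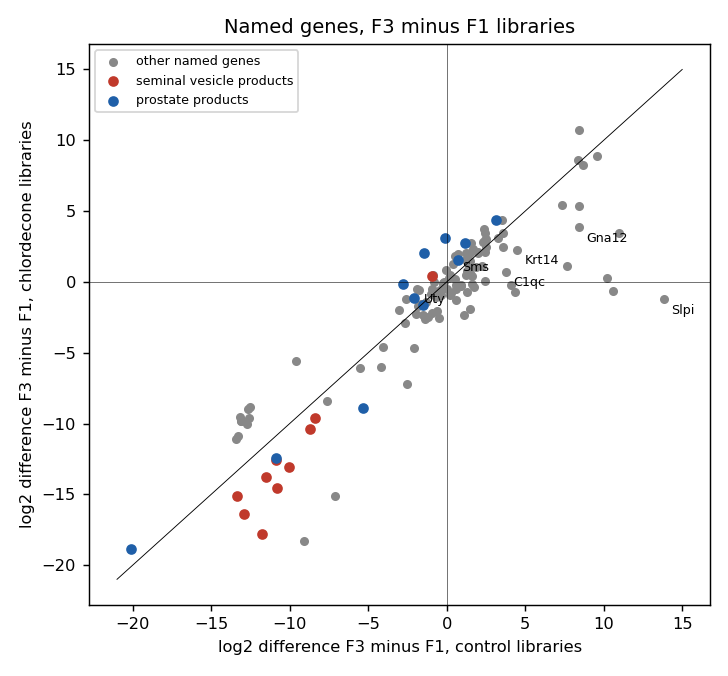
The log2 difference F3 minus F1 of the named genes in control libraries (x axis) and in chlordecone libraries (y axis), with seminal vesicle products in red, prostate products in blue, other named genes in grey and the line of equality. Svs4 lies at -11.53 and -13.79 and Tgm4 at 3.16 and 4.37, and the 6 labelled genes are those for which the 2 differences were found unequal.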

How the data were processed

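Prostate RNA was measured by stranded poly-A RNA sequencing. The authors deposited 1 table of read counts per gene for each generation. The tools, per the submitters' processing notes, included HTSeq 0.6.1, TopHat2 2.0.14, DESeq2 1.6.3, Bowtie2 2.1.0 and bcl2fastq 2.17.1.14, and the build was mm10. Which annotation was counted, and whether by strand, is not given in the sources used here. Columns were assigned to samples by name, with C read as control and K as kepone. Genes were joined by Ensembl ID, and the lowest gene total was 20 counts in the F1 table and 1 in the F3 table. Equal start and end positions were found for 1.872% of joined genes and an equal span for 71.401%, so the tables do not share an annotation, and the build of the F1 coordinates is uncertain. Exon lengths and overlaps came from the reference annotation (GRCm38), and promoters from RefSeq.

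CPM values were computed on joined genes. Differences were tested with edgeR 4.0.16 (R 4.3.3) quasi-likelihood tests after TMM scaling and filterByExpr (minimum count 10, total 15), with Benjamini-Hochberg adjustment at 0.05. Intervals and the floor of 3 counts cover counting error only. Genes named were, by rule, the 4 markers, the first 15 per length in each set, the 12 highest and 12 lowest differences (mean of at least 1 CPM), up to 5 members of each of the 21 lists (all members of the secretory lists) and the 6 widest within each set. Others were named after their values were seen. Some list members are counted but not reported here by name. The members and lists were chosen with earlier results of these data known. The fit was tested on simulated data. Alternatives included DESeq2 1.42.0, other filters and scalings, a replicate block, an exon length offset and leaving out each library.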

Additional observations from a re-analysis of the deposited data

Results flagged for a closer look

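For 6 named genes the difference between F3 and F1 libraries was not the same in controls and in chlordecone libraries, by an interaction term in an edgeR fit of all 11 libraries with adjustment over 16980 genes. The values below are the control difference minus the chlordecone difference on the log2 scale. Slpi, the secreted protease inhibitor, gave 15.02 (adjusted p = 0.0394), with no count in the 2 F1 controls, so its size depends on the prior count. It stood at 4.23 to 37.2 CPM in the F1 chlordecone libraries. Gna12 gave 4.62 (adjusted p = 0.00294), with a mean of 0.173 CPM in F1 controls, 3.85 ± 1.75 (SD, n = 3) in F1 chlordecone libraries and 50.7 CPM in F3 controls. Krt14, the basal keratin, gave 2.28 (adjusted p = 0.0291), with a mean of 1.19 CPM in F1 controls and 5.65 CPM in F1 chlordecone libraries. C1qc, the complement gene of macrophages, gave 3.11 (adjusted p = 0.0473), with 0.823 CPM and 4.02 CPM in the same groups. Sms, spermine synthase, gave -1.21 (adjusted p = 0.0473), with 85.3 CPM and 31.5 CPM. Uty gave -1.38 (adjusted p = 0.0291), with 104 CPM and 57.5 CPM. No group here has 4 samples, so no library was tested as an outlier.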

How the results depend on the processing

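Of 136 named genes with a test, 104 passed. Over all their alternatives 1828 values kept direction and side of the threshold, 72 lost the call, 23 gained it and 30 changed sign. The count of 10804 genes was 6784 among genes whose exons overlap no other gene (6520 for chlordecone libraries), an alternative chosen after seeing the data that tests fewer genes. Leaving out 1 library gave 9692 to 10239 (8842 to 11861 for chlordecone libraries). The share of calls that were higher was 45.5% with DESeq2 size factors, 46.0% with DESeq2's Wald test, 54.2% with the exon length offset (also chosen after seeing the data) and 56.2% over genes of at least 1 CPM. Without the 20 most counted genes, seminal vesicle products took 4.21% in F1 and 0.00113% in F3, and prostate products 1.20% and 0.0206%, since those genes hold most of both lists. Leaving out 1 library gave 15.6% to 16.2% and 0.857% to 0.993% for the former and 17.5% to 18.1% and 23.0% to 24.7% for the latter.

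With the exon length offset, values were 0.72 for 9530002B09Rik, 1.21 for Rps15, 0.06 for Rpl41, 1.72 for Rpl36, 1.15 for Rpl32, 2.47 for Defb50, 0.40 for Mylpf and 0.07 for Pdia3. With DESeq2 size factors Col1a2 was -0.10 and Sat1 -0.01, with the Wald test -0.11 and -0.01, and in 1 fit of all libraries Pdia3 was 0.03. Leaving out 1 library gave -0.37 to 0.01 for Defb50, -1.16 to 0.82 for Syp, -0.07 to 0.59 for Acta2, -1.36 to 0.10 for Mylpf, -0.15 to 0.32 for Col1a2, -0.19 to 1.6 for Fabp4, -0.62 to 3.19 for Adipoq and -0.19 to 0.07 for Pdia3. The cause was not tested. Calls were lost for 17 genes without F1 control 1, 17 without F1 control 2, and 2, 6 and 5 without F3 controls 1, 2 and 3.

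With the replicate number as a block 9707 genes passed (10078 for chlordecone libraries), and signs changed for Syp (0.08), Acta2 (-0.09), Fn1 (-0.08), Col1a2 (-0.21) and Pdia3 (0.02). Deviations of same-numbered controls correlated at 0.02 and 0.11 over 2909 genes, with only 2 numbers shared. With 2 F1 libraries their deviations mirror each other, so these values cannot decide whether same-numbered samples are related. Depth limits the F1 libraries more, where 3 counts over the set are 0.0839 CPM against 0.0109 CPM in F3.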
